A study of Mus musculus with 22 samples.

Results

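AMP-activated protein kinase (AMPK) and its 2 best known activating kinases were followed in mouse lung metastases through 8 genes: Prkaa1 and Prkaa2 (catalytic α subunits), Prkab1 and Prkab2 (scaffolding β subunits), Prkag1 and Prkag2 (nucleotide-sensing γ subunits), Stk11 (the upstream kinase LKB1) and Camkk2 (the upstream kinase CaMKK2). They were taken by gene symbol, by a rule that sets no threshold on measured values, although the group was picked with earlier results of these data known. Each was represented by 1 probe set, so that 8 of the 19505 genes on the array, and 8 of the 15545 genes that passed the filter on low signals, are described. All 8 passed that filter, which kept a gene when 5 or more arrays held it above their own 25th percentile.

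The study injected mice through the tail vein with NMuMG-ErbB2 cells, a mouse mammary epithelial line carrying the oncogene ErbB2, and profiled the lung metastases on 22 arrays. Metastases of the PGC1alpha overexpressing cells (NMuMG-ErbB2/PGC-1alpha) came from mice given phenformin for 1 week (6 arrays) or PBS (6 arrays). Metastases of the control cells (NMuMG-ErbB2/VC) came from mice given phenformin for 1 week (5 arrays) or PBS (5 arrays). All groups thus share the ErbB2-carrying line and the lung as host tissue, and below they are called PGC-1alpha metastases and control metastases. Mouse strain, age and sex, the phenformin dose, the promoter that drives PGC-1alpha, whether each line is a clone or a pool, and the number of animals behind the arrays are not given in the sources used here. What the p-values measure is therefore array-to-array spread, and they may be too small if arrays share an animal. Each line was compared as 1 pair of cell populations, so an effect of PGC-1alpha and any other difference between the 2 lines cannot be told apart.

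AMPK is a kinase of 3 subunits that senses falling cellular energy: AMP and ADP bind the γ subunit, which favours phosphorylation of the activation loop of the α subunit by LKB1, while CaMKK2 phosphorylates the same site in response to calcium. Active AMPK phosphorylates enzymes and regulators that turn down fatty acid and protein synthesis and turn up fatty acid oxidation, autophagy and mitochondrial turnover. Phenformin is a biguanide that inhibits complex I of the respiratory chain and is known to activate AMPK in cells, and PGC-1alpha is a transcriptional coactivator that drives mitochondrial gene expression. The arrays measured transcripts, so neither phosphorylation nor kinase activity was measured here.

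The values were log2 array signals. Array medians over all probe sets that are not controls were 6.55 to 6.64, and the 95th percentile of the negative control probe sets was 7.83 to 8.43 per array. Ppargc1a, the gene of PGC-1alpha, averaged 8.64 ± 0.79 in PGC-1alpha and 8.04 ± 0.39 in control metastases under phenformin (SD, n = 6 and 5), with overlapping ranges (7.65 to 9.83 and 7.58 to 8.67). Under PBS it averaged 8.90 ± 0.37 in PGC-1alpha and 7.54 ± 0.60 in control metastases (SD, n = 6 and 5), with ranges that did not overlap (8.46 to 9.38 and 6.69 to 8.24). The epithelial keratin Krt8 was at 12.13 to 12.45 on all arrays, and so was Sftpc, the surfactant gene of alveolar type 2 cells of normal lung, at 13.10 to 13.67. The captured tissue therefore held lung RNA in all 4 groups. One array stood apart: control phenformin array 3 carried heart muscle transcripts, with the atrial myosin gene Myl7 at 10.17 and the cardiac myosin gene Myh6 at 9.03, against array medians of 5.82 and 5.44. Its mean over the muscle markers, each centred over all arrays, was 1.59, and the next highest array was at 0.35. In such bulk tissue, fewer cells of a type and less RNA per cell cannot be told apart.

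Signals of the 8 genes differed in how far they stood above the negative controls, which sets how much can be read from them. Prkaa1, Prkag1 and Stk11 lay above the array's 95th percentile of negative controls on all 22 arrays, and Prkab1 did so on 21. Prkaa2, Prkab2, Prkag2 and Camkk2 lay above it on 0 arrays, although each lay above the array's median negative control on all 22. The spread between arrays of 1 group followed the same division. The within-group SD was 0.166 for Prkaa1, 0.175 for Prkag1, 0.186 for Prkab1 and 0.207 for Stk11. It was 0.310 for Prkag2, 0.316 for Camkk2, 0.431 for Prkab2 and 0.505 for Prkaa2, against a median of 0.252 over all tested genes. The best measured members were thus α1, β1, γ1 and LKB1, and a small change of α2, β2, γ2 or CaMKK2 could have been missed.

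**Figure D1:**
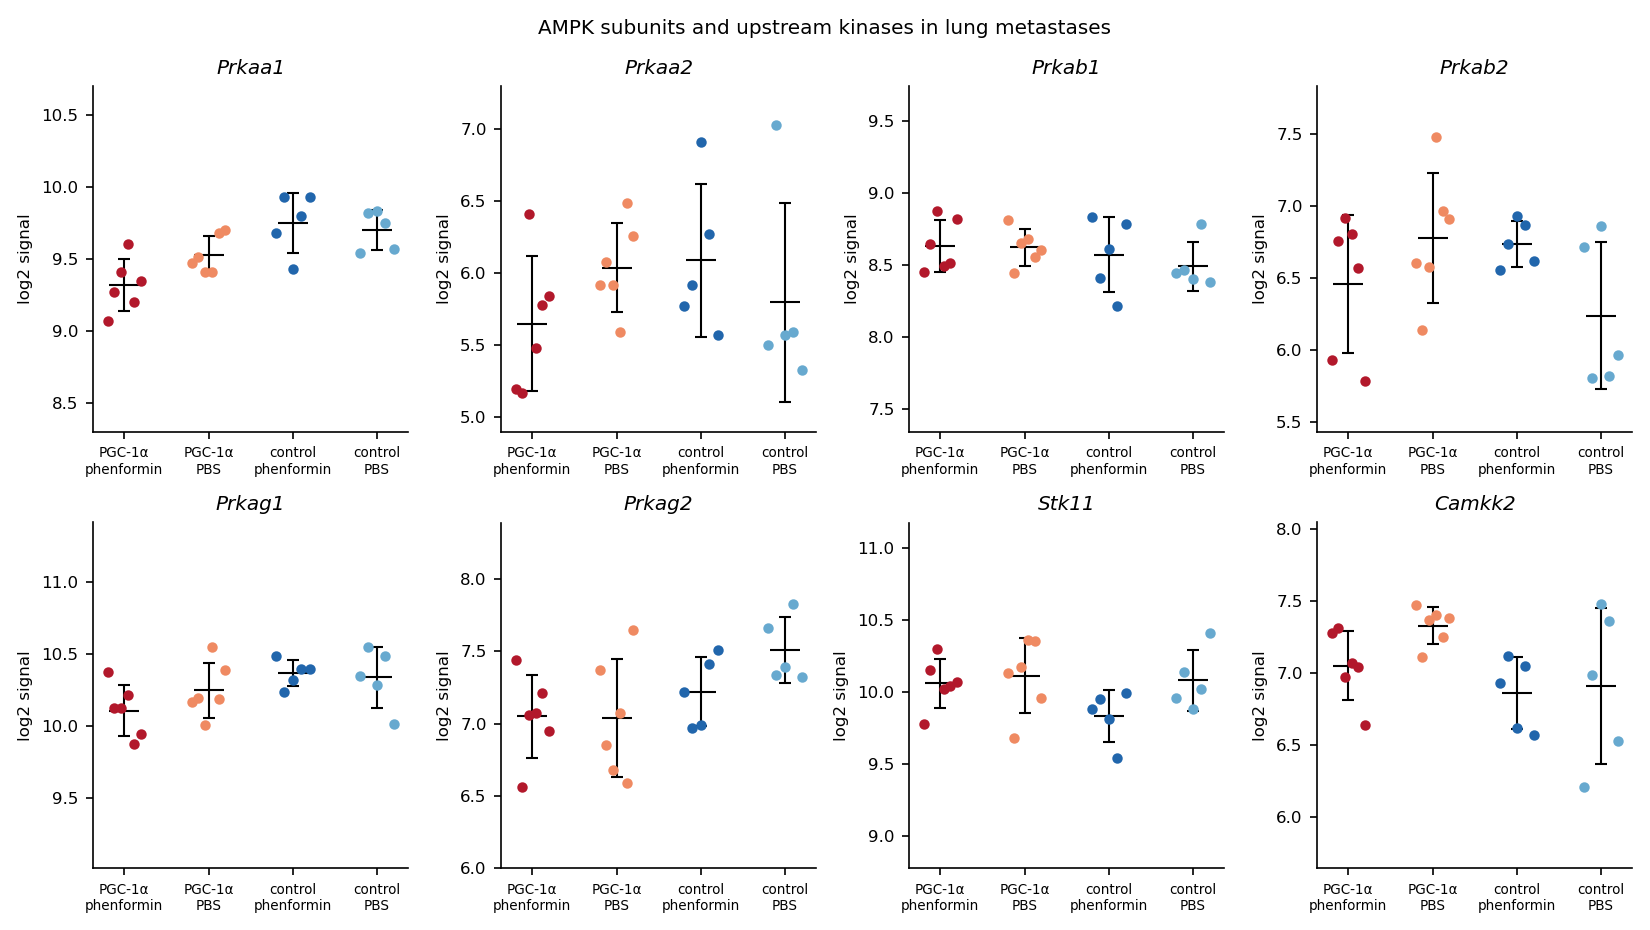
Log2 signal of each of the 8 genes on every array (points), with the group mean and SD (bars), in PGC-1alpha and control metastases under phenformin or PBS; each panel spans the same 2.4 log2 units around its own centre. Groups overlap in every panel. For Prkaa1, 5 of the 6 PGC-1alpha arrays under phenformin lie below the lowest control array under phenformin (means 9.32 and 9.75).

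The first question was how the injected line related to the AMPK genes while the mice received phenformin. Prkaa1, the gene of the α1 catalytic subunit, was lower in PGC-1alpha than in control metastases, by 0.44 on the log2 scale (fold 0.739). None of the other 7 passed the test (limma with Benjamini-Hochberg adjustment over all tested genes, called below 0.05). That is 1 of 8 genes, lower, where 21.1% of all tested genes were called in this comparison, 10% higher and 11.1% lower, so the number of calls among the 8 genes does not stand out. Under PBS none of the 8 was called, where 2.93% of all tested genes were (1.21% higher and 1.72% lower). Averaged over both treatments 1 of 8 was called, again Prkaa1, where 24.6% of all tested genes were called and 13.3% were called lower. These comparisons share arrays, so the averaged result is no separate evidence.

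Prkaa1 encodes α1, which carries the kinase domain and is widely expressed across tissues. Under phenformin its log2 signal was 9.07, 9.27, 9.41, 9.60, 9.20 and 9.35 in PGC-1alpha metastases (9.32 ± 0.18, SD, n = 6), against 9.68, 9.93, 9.43, 9.80 and 9.93 in control metastases (9.75 ± 0.21, SD, n = 5). On 5 of the 6 PGC-1alpha arrays the gene lay below the lowest control array; the ranges overlapped through 1 PGC-1alpha array at 9.60 and 1 control array at 9.43. The difference was -0.44 (SE 0.11, 95% confidence interval -0.67 to -0.20), with a limma p of 0.000753 before and 0.0111 after adjustment. The exact two-sided permutation p, for this gene alone and not adjusted for other genes, was 0.0108, the smallest possible being 0.00216. Under PBS the signal was 9.47, 9.51, 9.41, 9.41, 9.68 and 9.70 in PGC-1alpha metastases (9.53 ± 0.13, SD, n = 6), against 9.54, 9.82, 9.83, 9.75 and 9.57 in control metastases (9.70 ± 0.14, SD, n = 5). Here 4 of 6 PGC-1alpha arrays lay below the lowest control array, and the difference of -0.17 (SE 0.11, interval -0.41 to 0.06) did not pass (limma adjusted p = 0.446). That the difference was called under phenformin and not under PBS does not show that it depended on the drug: the interaction was -0.26 (SE 0.16) with a limma adjusted p of 0.539. Averaged over treatments, Prkaa1 was lower in PGC-1alpha metastases by 0.30 on the log2 scale (SE 0.08, fold 0.81, limma adjusted p = 0.00858).

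The Prkaa1 call rested on how the arrays were scaled. Under quantile normalisation the difference under phenformin was -0.29 (limma adjusted p = 0.0781) and under cyclic loess it was -0.31 (limma adjusted p = 0.0573), so the call was lost under both, while centring each array on its median gave -0.49 (limma adjusted p = 0.00571). Genes as bright as Prkaa1 leaned the same way: in the brightest of 5 equal brightness classes of the tested genes, which holds Prkaa1, Prkag1 and Stk11, the median difference was -0.13, with 16% called lower and 3.12% called higher. In the dimmest class, which holds Prkaa2, the median was 0.18, with 2.57% called lower and 12.3% called higher. The call was kept with each array left out in turn, with differences of -0.52 to -0.39. Neutrophil markers moved with the line as well: under phenformin 5 of 7 tested markers were lower in PGC-1alpha than in control metastases, among them S100a8 and S100a9, which encode neutrophil calcium-binding proteins. The mean of the neutrophil markers, each centred over all arrays, ranged from -0.59 to -0.10 in PGC-1alpha and from 0.11 to 0.71 in control metastases under phenformin. Alveolar type 2 markers had 2 of 8 lower and alveolar type 1 markers 1 of 7. Endothelium and mammary epithelium each had 1 of 8 lower. These lists held no higher call, and 11.1% of all tested genes were called lower. T and NK cell markers had 1 higher and 1 lower of 8, with the defining genes Cd3e and Cd3d above the 95th percentile of negative controls on 0 arrays. Markers of club and ciliated cells, fibroblasts and smooth muscle, macrophages, and cardiac and skeletal muscle had 0 calls under phenformin. Averaged over treatments, neutrophil markers had 5 of 7 lower and T and NK cell markers 2 of 8. Alveolar type 2 and mammary epithelium each had 3 of 8 lower, alveolar type 1 had 2 of 7 and endothelium 1 of 8. There 13.3% of all tested genes were called lower. Fibroblasts and smooth muscle had 1 of 7 higher and macrophages 1 of 6 higher, where 11.3% of all tested genes were called higher. The control array at 9.43 for Prkaa1 is the one with heart muscle transcripts, and without it the Prkaa1 difference under phenformin was -0.52 (limma adjusted p = 0.00541). With a score of all immune markers as a covariate the Prkaa1 difference was -0.59 (limma adjusted p = 0.0399), and with a score of normal lung markers it was -0.46 (limma adjusted p = 0.012). The averaged Prkaa1 call was lost with the immune score (-0.47, limma adjusted p = 0.0619) and under quantile normalisation (-0.21, limma adjusted p = 0.0611).

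**Figure D2:**
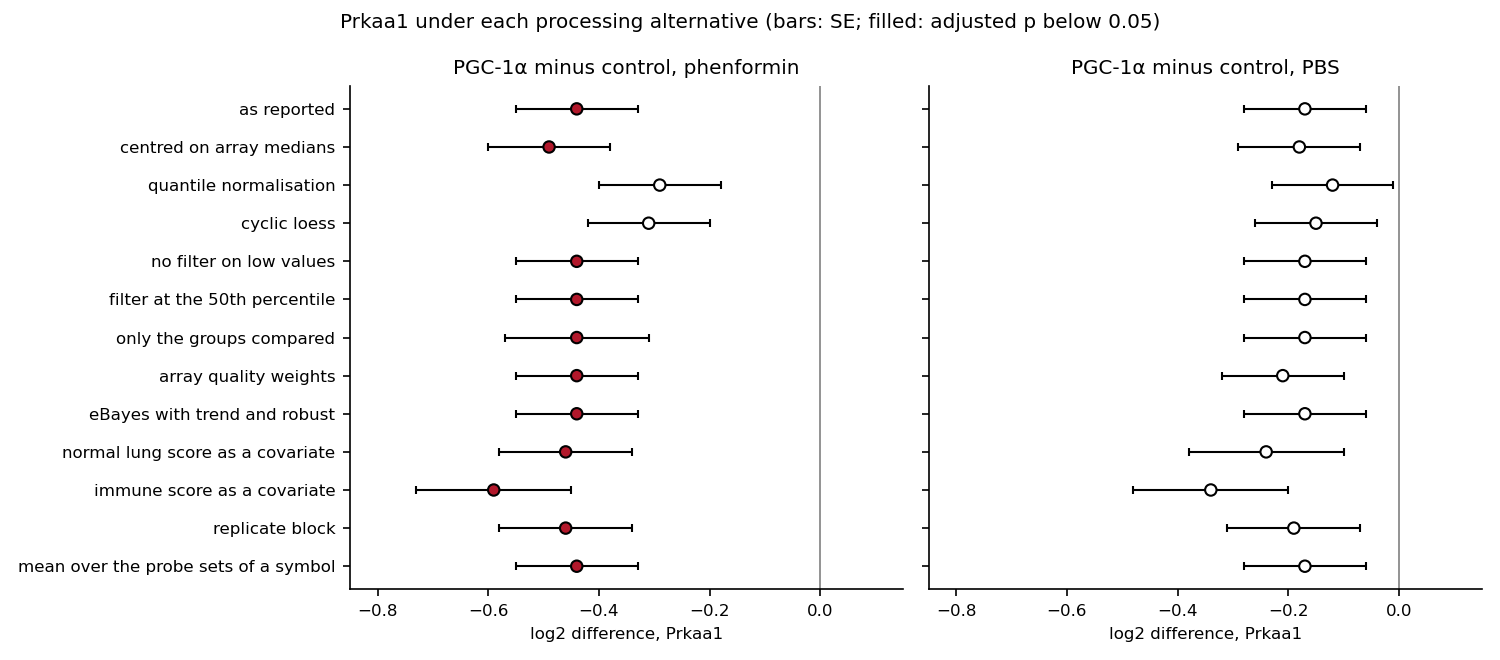
Log2 difference of Prkaa1 between PGC-1alpha and control metastases (points, x axis) with its SE (bars) under each way of processing the arrays, under phenformin (left) and PBS (right); filled points have an adjusted p below 0.05. Under phenformin all values lie below 0, between -0.59 and -0.29, and the points for quantile normalisation and cyclic loess are open.

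Prkaa2 encodes α2, the catalytic subunit known for its role in skeletal and heart muscle. Under phenformin its signal was 5.20, 5.17, 6.41, 5.48, 5.78 and 5.84 in PGC-1alpha metastases (5.65 ± 0.47, SD, n = 6), against 5.77, 5.92, 6.91, 6.27 and 5.57 in control metastases (6.09 ± 0.53, SD, n = 5). The fitted difference of -0.44 was as large as that of Prkaa1, but its SE was 0.28 and it did not pass (interval -1.01 to 0.13, limma adjusted p = 0.247). The highest control value, 6.91, came from the array with heart muscle transcripts, and without that array the difference was -0.24 (limma adjusted p = 0.555). Under PBS the signal was 5.92, 6.08, 5.92, 5.59, 6.49 and 6.26 in PGC-1alpha metastases (6.04 ± 0.31, SD, n = 6), against 5.50, 7.03, 5.57, 5.59 and 5.33 in control metastases (5.80 ± 0.69, SD, n = 5). A single control array at 7.03 stood far above the other control arrays, and the difference of 0.24 (SE 0.28, limma adjusted p = 0.698) did not pass.

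The β subunits hold the complex together and carry a carbohydrate-binding module. Prkab1 (β1) had nearly the same level throughout: 8.45, 8.64, 8.87, 8.49, 8.51 and 8.82 in PGC-1alpha metastases under phenformin, against 8.83, 8.41, 8.61, 8.21 and 8.78 in control metastases under phenformin. Under PBS it was 8.81, 8.44, 8.65, 8.68, 8.55 and 8.60 in PGC-1alpha metastases, against 8.44, 8.46, 8.40, 8.78 and 8.38 in control metastases. Its 4 group means spanned 0.14 log2 units, the narrowest span of the 8 genes. The line differences were 0.06 (SE 0.12, interval -0.19 to 0.31) under phenformin and 0.13 (SE 0.12, interval -0.12 to 0.38) under PBS, neither of which passed (limma adjusted p = 0.745 and 0.609).

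Prkab2 (β2) varied more from array to array. Under phenformin it was 5.93, 6.76, 6.92, 6.81, 6.57 and 5.79 in PGC-1alpha metastases, against 6.56, 6.74, 6.93, 6.87 and 6.62 in control metastases. Under PBS it was 6.61, 6.14, 6.58, 7.48, 6.97 and 6.91 in PGC-1alpha metastases, against 6.72, 5.81, 6.86, 5.82 and 5.97 in control metastases. In control metastases under PBS 3 of the 5 arrays lay below 6, as did 2 of the 6 arrays of PGC-1alpha metastases under phenformin. The line difference was 0.55 under PBS (SE 0.24, interval 0.05 to 1.04, unadjusted p = 0.0313, limma adjusted p = 0.225) and -0.28 under phenformin (SE 0.24, limma adjusted p = 0.4). Neither passed.

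The γ subunits bind the adenine nucleotides. Prkag1 (γ1) was 10.38, 10.13, 10.13, 10.22, 9.88 and 9.95 in PGC-1alpha metastases under phenformin (10.11 ± 0.18, SD, n = 6), against 10.49, 10.24, 10.32, 10.40 and 10.40 in control metastases under phenformin (10.37 ± 0.09, SD, n = 5). On 5 of the 6 PGC-1alpha arrays it lay below the lowest control array, with 1 PGC-1alpha array, at 10.38, inside the control range. The difference of -0.25 (SE 0.12, interval -0.50 to -0.01) had an exact permutation p of 0.0195 but did not pass over all genes (limma adjusted p = 0.115). Under PBS it was 10.17, 10.20, 10.01, 10.55, 10.19 and 10.39 in PGC-1alpha metastases, against 10.35, 10.55, 10.29, 10.49 and 10.02 in control metastases, and the ranges nearly coincided. That difference was -0.09 (SE 0.12, limma adjusted p = 0.737).

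Prkag2 (γ2), mutated in an inherited heart disease with glycogen storage and pre-excitation, was 7.44, 6.56, 7.06, 7.07, 7.21 and 6.95 in PGC-1alpha metastases under phenformin, against 7.22, 6.97, 6.99, 7.41 and 7.51 in control metastases under phenformin. Under PBS it was 7.37, 6.85, 6.68, 7.07, 6.59 and 7.65 in PGC-1alpha metastases, against 7.66, 7.34, 7.39, 7.83 and 7.32 in control metastases. Under PBS 4 of the 6 PGC-1alpha arrays lay below the lowest control array. The line difference was -0.47 under PBS (SE 0.18, interval -0.84 to -0.10, unadjusted p = 0.0144, limma adjusted p = 0.155) and -0.17 under phenformin (SE 0.18, limma adjusted p = 0.501). Averaged over treatments it was -0.32 (SE 0.13), with a limma adjusted p of 0.0631. Without PGC-1alpha phenformin array 1 or PGC-1alpha PBS array 6 the averaged difference passed, and its range over all arrays left out in turn was -0.38 to -0.27. The third γ gene, Prkag3, known from glycolytic muscle and not among the 8, averaged 7.30 ± 0.19 in PGC-1alpha and 6.88 ± 0.15 in control metastases under phenformin (SD, n = 6 and 5), a difference of 0.43 that did not pass (limma adjusted p = 0.0648).

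Of the upstream kinases, Stk11 encodes LKB1, a tumour suppressor and the main AMPK kinase under energy stress. Under phenformin it was 9.78, 10.15, 10.30, 10.02, 10.04 and 10.07 in PGC-1alpha metastases (10.06 ± 0.17, SD, n = 6), against 9.88, 9.95, 9.81, 9.54 and 9.99 in control metastases (9.83 ± 0.18, SD, n = 5). On 5 of the 6 PGC-1alpha arrays it lay above the highest control array, while the remaining one, at 9.78, lay below 4 of the 5 control arrays. The difference of 0.23 (SE 0.13, interval -0.04 to 0.50, limma adjusted p = 0.204) did not pass. Under PBS it was 10.13, 9.68, 10.17, 10.36, 10.35 and 9.96 in PGC-1alpha metastases, against 9.96, 10.14, 9.88, 10.02 and 10.41 in control metastases. That difference was 0.02 (SE 0.13, limma adjusted p = 0.952).

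Camkk2 encodes the calcium-responsive AMPK kinase. Under phenformin it was 7.28, 7.31, 6.97, 7.07, 7.04 and 6.64 in PGC-1alpha metastases, against 6.93, 7.12, 6.62, 7.05 and 6.57 in control metastases. Under PBS it was 7.47, 7.11, 7.37, 7.40, 7.25 and 7.38 in PGC-1alpha metastases (SD 0.13), against 6.21, 6.99, 7.48, 7.36 and 6.53 in control metastases (SD 0.54). The PGC-1alpha arrays under PBS lay close together and inside the wide range of the control arrays. The line difference was 0.42 under PBS (SE 0.18, unadjusted p = 0.031, limma adjusted p = 0.224), 0.19 under phenformin (SE 0.18, limma adjusted p = 0.455) and 0.30 averaged over treatments (SE 0.13, limma adjusted p = 0.0827). The averaged difference passed without control PBS array 3 or control PBS array 4, and ranged from 0.22 to 0.38 over all arrays left out in turn.

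Before adjustment, 3 of the 8 line differences under PBS (Prkab2, Prkag2 and Camkk2) and 2 under phenformin (Prkaa1 and Prkag1) had a p below 0.05. The shares of all tested genes were 18% under PBS and 37.1% under phenformin. Averaged over treatments 4 of the 8 (Prkaa1, Prkag1, Prkag2 and Camkk2) had one, where 39% of all tested genes did. The median line difference of the 8 genes was -0.21 under phenformin and 0.08 under PBS, beside medians of 0.00 and 0.01 over all tested genes. None of the 8 had ranges that stood fully apart in any comparison of 2 groups. The shares of all tested genes with such ranges were 11% and 3.26% between the lines under phenformin and under PBS, and 0.219% and 1.28% between phenformin and PBS in PGC-1alpha and in control metastases.

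**Figure D3:**
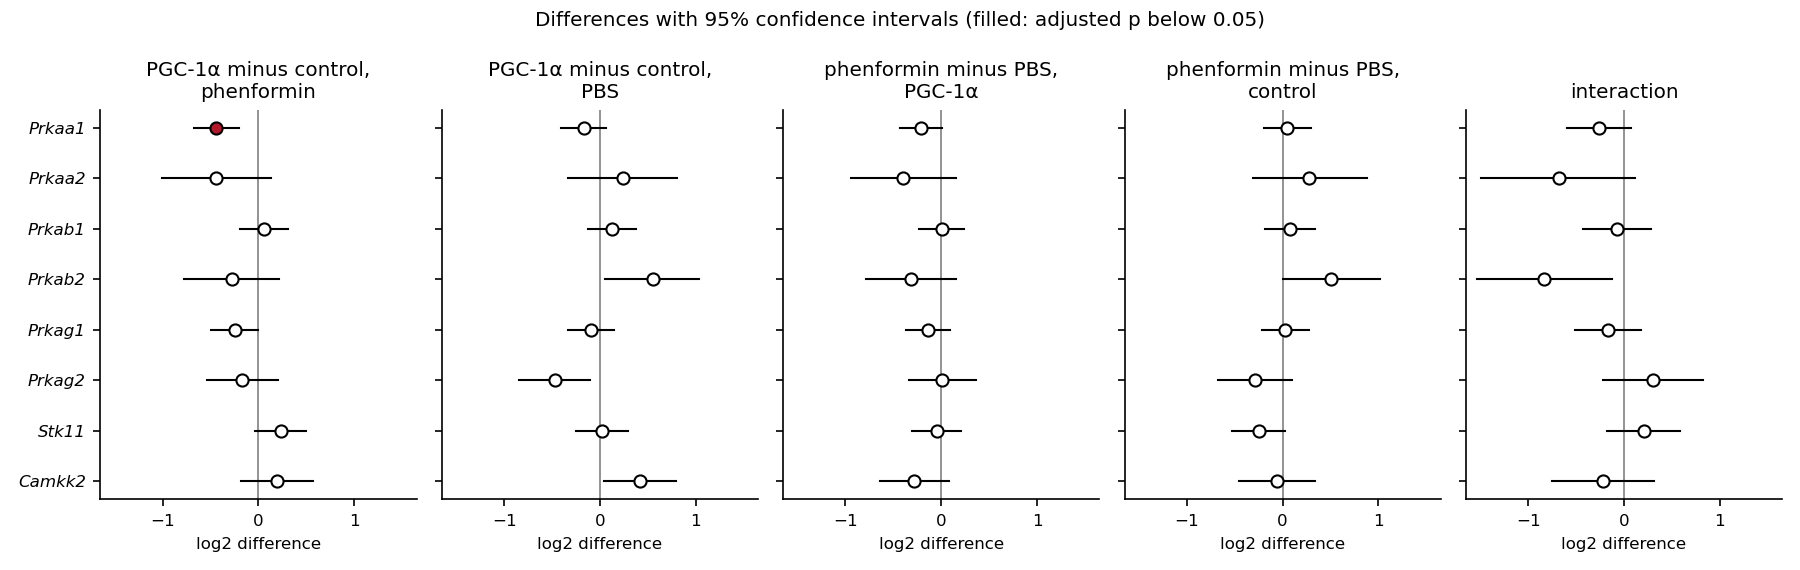
Log2 differences of the 8 genes (points, x axis) with 95% confidence intervals (lines) for PGC-1alpha minus control under phenformin and under PBS, phenformin minus PBS in each line, and the interaction; filled points have an adjusted p below 0.05. Prkaa1 under phenformin, at -0.44, is the single filled point.

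The second question was whether 1 week of phenformin changed transcript levels of the kinase it is known to activate. None of the 8 genes passed in PGC-1alpha metastases, where 0% of all tested genes were called, and none in control metastases, where 0% were called too (limma). With no gene called anywhere, a count of 0 among these 8 says nothing particular about them. Before adjustment, 0 of the 8 had a p below 0.05 in either line, against 4.34% of all tested genes in PGC-1alpha metastases and 9.64% in control metastases.

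In PGC-1alpha metastases the phenformin differences ran from -0.40 for Prkaa2 to 0.01 for Prkab1 and Prkag2, and 6 of 8 were below 0. For Prkaa1 the difference was -0.21 (SE 0.11, interval -0.43 to 0.01, limma adjusted p = 0.957), with 4 of 6 phenformin arrays below the lowest PBS array. For Camkk2 it was -0.28 (SE 0.17, interval -0.64 to 0.08, limma adjusted p = 0.957), also with 4 of 6 phenformin arrays below the lowest PBS array. Taken alone, these 2 genes had exact two-sided permutation p-values of 0.0455 and 0.0238, which are not adjusted for the 8 genes or for all genes tested. The remaining 6 had larger ones. No share of all tested genes was obtained by this exact test.

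In control metastases the differences ran from -0.29 for Prkag2 to 0.51 for Prkab2, and 5 of 8 were above 0. Prkab2 had the lowest p of the 8 (difference 0.51, SE 0.25, unadjusted p = 0.0521, limma adjusted p = 0.52), and 3 of the 5 PBS arrays lay below every phenformin array. Stk11 differed by -0.25 (SE 0.14, interval -0.53 to 0.03, limma adjusted p = 0.561) and Prkaa1 by 0.05 (SE 0.12, interval -0.19 to 0.30, limma adjusted p = 0.911). The intervals of the 8 genes reached from -0.94 to 0.36 in PGC-1alpha metastases and from -0.67 to 1.02 in control metastases. These limits correspond to changes of up to 1.92-fold in PGC-1alpha metastases, for Prkaa2, and up to 2.03-fold in control metastases, for Prkab2. For the 4 brighter genes the intervals were narrower: in PGC-1alpha metastases Prkab1 lay between -0.23 and 0.24, Stk11 between -0.30 and 0.21 and Prkag1 between -0.37 and 0.09.

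Averaged over both lines the phenformin differences of the 8 genes lay between -0.17 (Camkk2) and 0.10 (Prkab2), and none passed, where 0% of all tested genes were called (limma adjusted p = 1 for each). Before adjustment 0 of the 8 had a p below 0.05, where 3.96% of all tested genes did. The interaction of line and phenformin, which is the phenformin difference in PGC-1alpha metastases minus that in control metastases, was called for none of the 8 and for 0% of all tested genes. Prkab2 had the lowest p of the 8 at -0.83 (SE 0.34, interval -1.53 to -0.13, unadjusted p = 0.0217, limma adjusted p = 0.388). It was the single gene of the 8 with an unadjusted p below 0.05, where 11.1% of all tested genes had one.

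The 8 genes did not vary as 1 unit across the arrays. Over the 22 arrays their 28 pairwise Pearson correlations lay between -0.28 and 0.49 with a median of 0.03, and 15 were above 0. The highest was between the γ genes Prkag1 and Prkag2 (r = 0.49, and 0.42 after subtracting group means). Next came Prkaa1 with Prkag1 (r = 0.46), which was 0.11 after subtracting group means. These values describe arrays that share their groups and their scaling, and they carry no test.

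Around the 8 genes, 68 other genes of the AMPK pathway were looked up in 6 lists, and 60 were tested. Under phenformin, 15 of the 60 were called between PGC-1alpha and control metastases, 8 higher and 7 lower in PGC-1alpha metastases. That is 25%, beside 21.1% of all tested genes (10% higher and 11.1% lower). Under PBS 1 of 60 was called (1.67%, beside 2.93% of all tested genes), and averaged over treatments 16 were (26.7%, beside 24.6%). With marker scores as covariates the averaged count was 7 (normal lung) and 1 (immune). Over all tested genes the averaged calls went from 3831 to 1905 and 115 in the same order. Neither drug comparison nor the interaction called any of the 60 (limma), where 0% of all tested genes were called. Before adjustment 1 of the 60 had a p below 0.05 in PGC-1alpha metastases (1.67%, beside 4.34% of all tested genes). There were 5 in control metastases (8.33%, beside 9.64%) and 5 in the interaction (8.33%, beside 11.1%). The pathway genes thus followed the share of all genes, and the calls below name which ones they were. The counts per list are to be read beside these shares. Over all tested genes the direction of calls under phenformin also varied with brightness. The dimmest of the 5 classes had 12.3% higher and 2.57% lower, and the brightest had 3.12% higher and 16% lower.

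Among 10 tested partners of LKB1 and other AMPK regulators, 2 were lower under phenformin and 0 higher. Cab39l, a scaffold of the LKB1 complex, differed by -0.45 (SE 0.14, limma adjusted p = 0.0267), and Ppm1a, a phosphatase that can remove the activating phosphate from AMPK, by -0.43 (SE 0.12, limma adjusted p = 0.0181). The median of the list was -0.24, beside 0.00 over all tested genes. Among 11 AMPK-related kinases, which LKB1 also phosphorylates, 2 were higher and 0 lower: the polarity kinase Mark2 by 0.50 (SE 0.13, limma adjusted p = 0.011) and Brsk1 by 0.46 (SE 0.15, limma adjusted p = 0.0283). Mark2 averaged 8.69 ± 0.31 in PGC-1alpha and 8.19 ± 0.18 in control metastases under phenformin (SD, n = 6 and 5).

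Among 11 metabolic substrates of AMPK, the acetyl-CoA carboxylases went opposite ways. Acacb, the mitochondrial-membrane enzyme whose product restrains fatty acid oxidation, averaged 7.73 ± 0.15 in PGC-1alpha and 7.23 ± 0.11 in control metastases under phenformin (SD, n = 6 and 5), with ranges of 7.62 to 7.97 and 7.12 to 7.34 that did not overlap. It was higher by 0.50 (SE 0.11, limma adjusted p = 0.0063). Acaca, the cytosolic enzyme of fatty acid synthesis, was lower by 0.36 on the log2 scale (difference -0.36, SE 0.10, limma adjusted p = 0.0187). Tested genes of its brightness class (means 7.69 to 8.80) leaned the same way, with a median of -0.14, 18.9% called lower and 6.75% higher. The Acaca call was lost under quantile normalisation and cyclic loess. Mlxipl, the glucose-responsive transcription factor ChREBP, was higher by 0.45 (SE 0.14, limma adjusted p = 0.0267).

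Among 12 substrates in autophagy and mitochondrial fission, 3 were higher and 0 lower. Foxo3, a stress-responsive transcription factor, averaged 6.99 ± 0.07 in PGC-1alpha and 6.47 ± 0.24 in control metastases under phenformin (SD, n = 6 and 5), and its ranges of 6.94 to 7.10 and 6.18 to 6.83 did not overlap. It was higher by 0.52 (SE 0.11, limma adjusted p = 0.00385). The others were Becn1, part of the lipid kinase complex that starts autophagosomes, at 0.45 (SE 0.14, limma adjusted p = 0.0236), and Tfeb, a transcription factor of lysosomal genes, at 0.42 (SE 0.13, limma adjusted p = 0.0246).

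The largest pathway differences lay among 15 genes of mTORC1, the growth kinase complex that AMPK restrains, and its regulators: 4 were lower and 1 was higher under phenformin. Rheb, the small GTPase that switches mTORC1 on, averaged 8.97 ± 0.39 in PGC-1alpha and 9.71 ± 0.12 in control metastases under phenformin (SD, n = 6 and 5), with ranges of 8.40 to 9.44 and 9.58 to 9.83 that did not overlap. It was lower by 0.74 on the log2 scale under phenformin (difference -0.74, SE 0.15, limma adjusted p = 0.003). Rheb was also the 1 pathway gene called under PBS, where it averaged 9.07 ± 0.18 in PGC-1alpha and 9.65 ± 0.16 in control metastases (SD, n = 6 and 5; difference -0.58, limma adjusted p = 0.0359). Of the Rag GTPases, which bring mTORC1 to lysosomes, only Rragc and Rraga were looked up. Both were lower under phenformin, Rragc by -0.70 (SE 0.18, limma adjusted p = 0.0117) and Rraga by -0.34 (SE 0.11, limma adjusted p = 0.0376). The called genes did not share 1 role: Tbc1d7, a subunit of the TSC complex that switches Rheb off, was lower (-0.58, SE 0.18, limma adjusted p = 0.0285), and Sesn2, a leucine sensor that restrains mTORC1, was higher (0.62, SE 0.21, limma adjusted p = 0.0391). Sesn2 falls outside the naming rule and was chosen after its values were seen. For 7 of the 15 genes called under phenformin (Foxo3, Acacb, Rragc, Sesn2, Brsk1, Mlxipl and Tbc1d7) all group means lay below 7.83, the lowest 95th percentile of negative controls on any array. All group means of Rheb lay above the highest, 8.43.

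These pathway calls differed in how firmly they stood. The Foxo3 call under phenformin was kept under every alternative setting and with each array left out, at 0.43 to 0.59 over the settings. The calls of Mark2, Acacb, Rheb and Rragc under phenformin were kept with each array left out and were lost in 1 setting, the immune marker score as a covariate, which left 1 of the 60 genes called. Over all tested genes that setting left 215 called under phenformin, beside 3283 in the main fit, so the loss was not particular to these genes. Without control phenformin array 2, or without control phenformin array 4, 8 of the 60 were called under phenformin. Under quantile normalisation, under cyclic loess and with the immune score, the calls of Cab39l, Ppm1a, Brsk1, Acaca, Mlxipl, Rraga and Sesn2 were lost. Fitting only the compared groups also ended the calls of Rraga and Sesn2, the replicate block that of Rraga, centring on array medians that of Sesn2 and array quality weights that of Tbc1d7. Some array left out ended each call of Cab39l, Brsk1, Acaca, Mlxipl, Becn1, Tfeb, Tbc1d7, Rraga and Sesn2, with limma adjusted p-values of up to 0.129. Control phenformin array 2 did so for Acaca and array 4 for Tfeb. Both of these ended the calls of Becn1, Brsk1, Mlxipl, Rraga and Sesn2 as well. For Cab39l they were PGC-1alpha phenformin arrays 2 and 5 and control phenformin arrays 1 and 2, and for Tbc1d7 PGC-1alpha phenformin arrays 1, 2 and 3 and control phenformin array 4. The Rheb call under PBS was lost with either marker score and without any 1 of 7 arrays, its difference staying between -0.64 and -0.54 over the arrays left out.

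**Figure D4:**
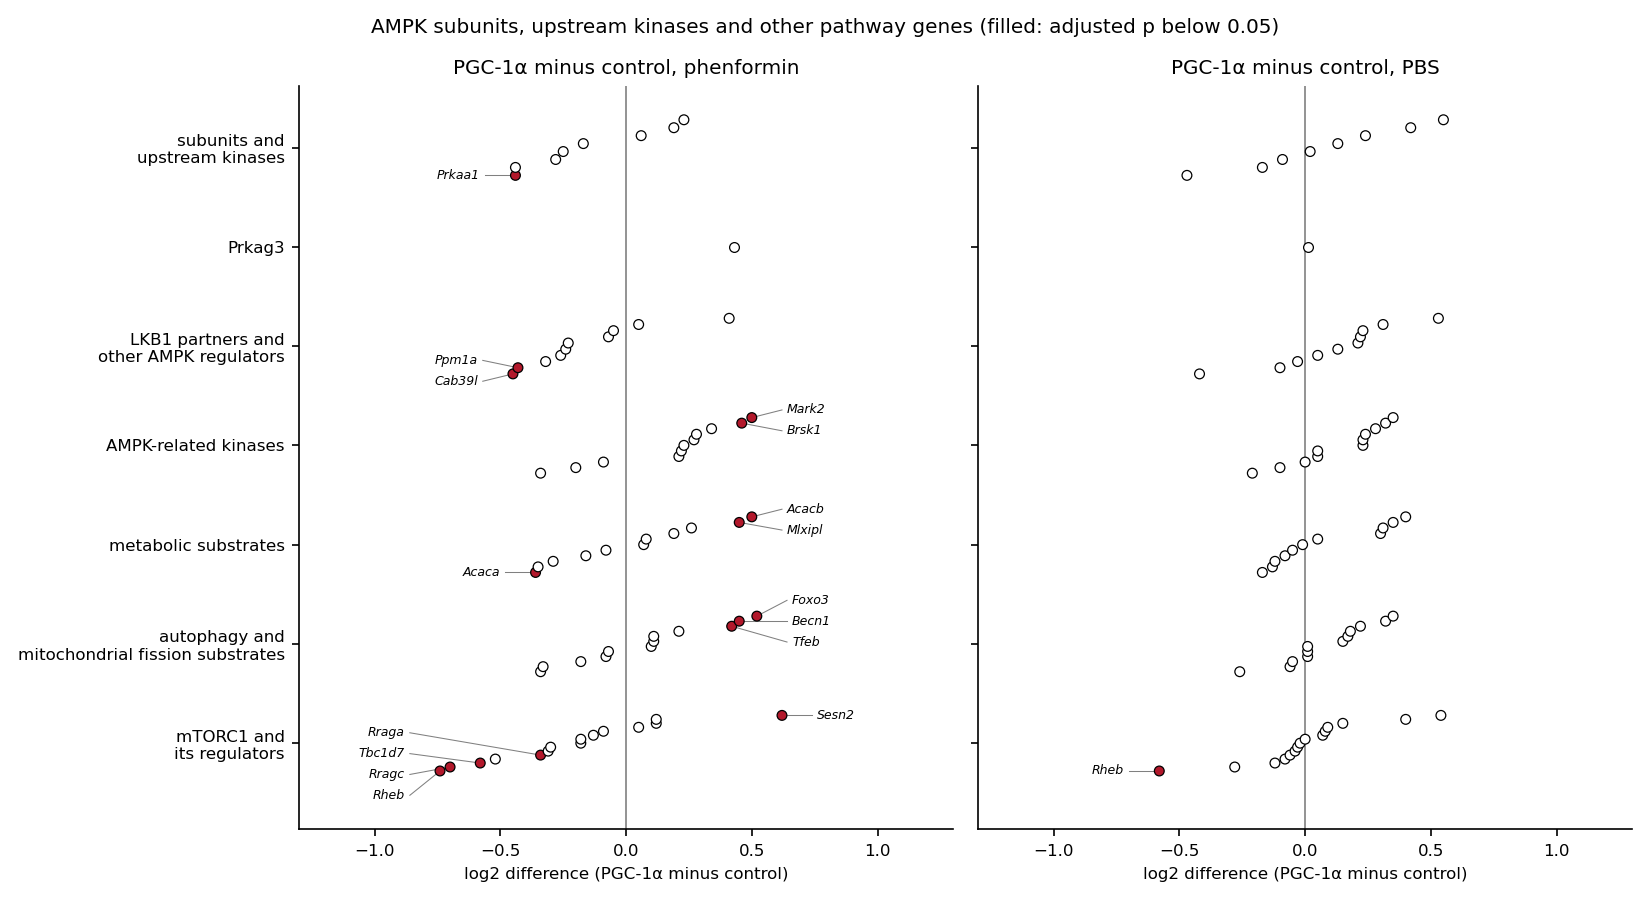
Log2 differences between PGC-1alpha and control metastases (x axis) of the 8 AMPK genes, of Prkag3 and of the tested genes of 5 pathway lists (1 point each), under phenformin (left) and PBS (right); filled, named points have an adjusted p below 0.05. Calls fall on both sides of 0 under phenformin, with Rheb at -0.74 the lowest and Sesn2 at 0.62 the highest, and Rheb at -0.58 is the single call under PBS.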

How the data were processed

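The deposited values are log2 signals that the authors had already processed from the arrays, per the file headers 1 value per probe set and sample; the software was oligo per the submitters' processing notes, and its version, background correction and normalisation are not given in the sources used here. Per the labels' protocols, metastases were taken by laser capture, and 10 ng of RNA was used. The table holds 28815 probe sets, 6609 of them controls. Another deposited table was left out, since its 22 columns match no sample's labels. How many arrays a group has limits its precision.

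Gene symbols came from the platform annotation (19572 probe sets with 1 symbol, 0 with several, 2634 with none). Where a gene had several probe sets (55 genes), the one with the highest mean was kept. All 22 arrays were fitted with limma 3.58.1 in R 4.3.3, with 1 mean per group, and Benjamini-Hochberg adjustment ran over all 15545 genes tested. Exact two-sided permutation tests over arrays were added for single genes. Figures were drawn with matplotlib 3.10.9. The fit was tested on simulated data.

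The 8 genes, the pathway lists and the marker lists were chosen with earlier results of these data known. Named were the 8 genes, from each pathway list and comparison up to 4 called genes with the smallest adjusted p, the 3 genes most like each called member, and the first 2 genes of each marker list. Alternatives were 3 scalings, other filters, weights and variance models, covariates for marker scores, a replicate block and each array left out. The replicate numbers were not used as a pairing in the main fit. Of 31 same-numbered pairs, 6 had deviations that correlated above 0.1 (range -0.19 to 0.31). The same-numbered array was the best match in 17 of 62 look-ups. These values do not decide whether the numbers pair the arrays.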

Additional observations from a re-analysis of the deposited data

Results flagged for a closer look

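In control metastases under PBS, Prkaa2 on array 2 was 7.03, while the other 4 arrays of the group lay between 5.33 and 5.59. In the same group, Prkab1 on array 4 was 8.78, while the other 4 lay between 8.38 and 8.46. Each array stood apart by Dixon's criterion, which 2 of 32 gene and group combinations met, and chance gives about 1 in 20. Without control PBS array 2 the Prkaa2 line difference under PBS was 0.54, the upper end of its range over the arrays left out, beside 0.24 with all arrays. Neither passed the test (limma adjusted p = 0.25 and 0.698).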

How the results depend on the processing

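Of 641 values of the 8 genes under alternative settings, 624 kept their direction and their side of the threshold. With arrays left out, 1201 of 1232 did. The count of members called between lines averaged over treatments, 1 as reported, was 2 with centring on array medians and 2 with the replicate block (Prkaa1 and Prkag2 in both), 0 with quantile normalisation, 0 with the immune score as a covariate, and 1 to 2 with arrays left out. Under phenformin it was 0 with quantile normalisation, 0 with cyclic loess and 2 by unadjusted exact permutation (Prkaa1 and Prkag1). For phenformin in PGC-1alpha metastases it was 2 by unadjusted exact permutation (Prkaa1 and Camkk2). No share of all tested genes was obtained by the exact test, so neither count of 2 can be read as an excess. By limma before adjustment, 0 of the 8 had a p below 0.05 for phenformin in PGC-1alpha metastases, beside 4.34% of all tested genes. The replicate block changed no other call of the 8 genes, and whether replicate numbers pair the arrays was not settled.

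Signs turned in small, uncalled differences. Phenformin in PGC-1alpha metastases: Prkab1 -0.02 (centred) and -0.05 (lung score), Prkag2 -0.01 (centred), Stk11 0.02 (cyclic loess). Phenformin in control metastases: Prkag1 0.00 (cyclic loess), Prkaa1 0.00 (immune score). Interaction: Prkab1 0.04 (quantile) and 0.03 (cyclic loess). Line averaged: Prkaa2 0.06 (lung score), Prkab2 -0.16 (immune score). Line under PBS: Prkag1 0.01 (immune score). With arrays left out, the values whose sign turned ranged as follows. Line under PBS: Stk11 -0.03 to 0.11, Afg3l2 -0.12 to 0.03. Line under phenformin: Prkab1 -0.03 to 0.13. Phenformin in PGC-1alpha metastases: Prkab1 -0.04 to 0.04, Prkag2 -0.08 to 0.13, Stk11 -0.13 to 0.01. Phenformin in control metastases: Prkag1 -0.05 to 0.08, Camkk2 -0.23 to 0.09. Prkaa2: -0.18 to 0.05 for the line averaged, -0.16 to 0.10 for phenformin averaged.

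Over all genes, the 455 calls between lines under PBS became 237 with only the compared groups fitted, 42 with the lung score, 19 with the immune score and 191 to 491 with arrays left out. The 3283 under phenformin became 215 with the immune score, and 47.5% of them were higher, against 33.5% after centring and 55% after quantile normalisation. The 3831 averaged over treatments became 1905 with the lung score and 115 with the immune score. The cause was not tested. Signals near the negative controls limit Prkaa2, Prkab2, Prkag2 and Camkk2.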

Other observations

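The 3 tested genes whose levels were most like those of Prkaa1 over the 22 arrays were Mrpl35, a mitochondrial ribosomal protein (Pearson r = 0.85, and 0.66 after subtracting group means), Afg3l2, a protease of the inner mitochondrial membrane (r = 0.85, and 0.74), and Rictor, the defining subunit of mTORC2 (r = 0.83, and 0.69). The arrays share their groups and scaling, and no test was made of these correlations. Likeness to Prkaa1 on these arrays favours differences between the same groups, without fixing each one. The differences of these genes between PGC-1alpha and control metastases are therefore given as a description. Under phenformin they were -0.44 for Mrpl35, -0.63 for Afg3l2 and -0.68 for Rictor. Under PBS they were -0.20, -0.06 and -0.31 in the same order.

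Rictor lies on chromosome 15 near Prkaa1. It was picked for its likeness to Prkaa1, so its own lower calls in the counts below are no separate evidence. Of the 10 nearest tested genes on each side of Prkaa1, an alternative chosen after the data were seen, 2 of 20 were lower (10%, beside 8.63% of the chromosome's genes and 11.1% of all tested genes) and 1 was higher in PGC-1alpha metastases under phenformin, with a median difference of -0.26 beside 0.03 over the chromosome's 614 tested genes. Averaged over treatments 4 of these 20 were lower and 0 higher. They were AW549877 (-0.84), C6 (-0.61), Rictor (-0.50) and Oxct1 (-0.33, the enzyme that commits ketone bodies to oxidation). That is 20%, where 11.7% of the chromosome's genes and 13.3% of all tested genes were lower. Under PBS 1 of the 20 was lower, AW549877 (-0.62), and 0 higher, with a median of -0.08. There 2.28% of the chromosome's genes and 1.72% of all tested genes were lower. Lower calls were not confined to the surroundings of Prkaa1. The same window around Prkaa2, on chromosome 4, held 5 of 20 lower and 5 higher under phenformin, with a median of 0.16. Averaged over treatments it held 4 lower and 3 higher. Of that chromosome's genes 10.2% were lower under phenformin and 13.3% averaged over treatments.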
